A study of Mus musculus with 4 samples.

Results

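The 10 genes described here encode enzymes that make, lengthen and desaturate fatty acids: Acly, Acaca, Acacb, Fasn, Mcat, Elovl6, Scd1, Scd2, Fads1 and Fads2. They were chosen by gene name, from a set drawn up with earlier results of these data known, and all 10 have a row among the 23875 genes of the deposited table. The table comes from RNA-seq of the mouse epithelial ovarian cancer line ID8, with 2 libraries of ID8-P0 cells and 2 of ID8-PW2 cells. ID8-P0 derives from ovarian surface epithelial cells of C57BL/6 mice that transformed in culture, and was not passaged in mice. ID8-PW2 is a line from a peritoneal wall tumor, isolated after 2 passages in C57BL/6 mice, and so stands for one tumor site and one passage history. Both are wild type by their labels, descend from cells marked with GFP and luciferase, and were held in suspension for 24 h on poly-HEMA plates in medium with 4% FBS. The methods call the 2 libraries of each line biological duplicates. Both ID8-P0 libraries are recorded with lane 3, and the ID8-PW2 libraries with lanes 4 and 8. Lane and cell line can thus not be told apart, and the spread between the ID8-PW2 duplicates can hold a lane difference.

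The study asked how ID8-PW2 differs from ID8-P0. The counts per library in the table have headings that no label uses, and its columns of fold changes and p-values hold the authors' own comparison. Neither was used here, so no difference between ID8-PW2 and ID8-P0, no value per library and no test is given. What follows rests on 1 mean level per gene over the 4 libraries, which the authors made with edgeR in log2 CPM (reads of a gene scaled to the size of its library, so that all genes of a library sum to about the same total). A level is thus a mean of both cell lines, and a gene that differs between them is placed between its levels in each. The account also rests on the dispersion that edgeR estimated for each gene. From it follows the BCV, the biological coefficient of variation: the root of the dispersion, given here in percent, which describes how far replicates vary beyond counting noise. How the dispersion was estimated is not given in the sources used here.

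Cells build saturated fatty acids in the cytosol from acetyl-CoA. ATP citrate lyase (Acly) releases acetyl-CoA from citrate, acetyl-CoA carboxylase turns it into malonyl-CoA, and fatty acid synthase (Fasn) joins these units to palmitate. Elovl6 lengthens palmitate to stearate, and the stearoyl-CoA desaturases Scd1 and Scd2 place the first double bond, which gives oleate and palmitoleate. Fads1 and Fads2 act on the essential polyunsaturated fatty acids of the diet. Mitochondria hold a separate pathway, to which Mcat belongs and which feeds the synthesis of lipoic acid. Transcription of many of the cytosolic enzymes is driven by SREBP factors.

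Several of these enzymes exist as close paralogs, and their sequences are shown first because they bear on how reads can be assigned between genes. In the coding sequences of Scd1 and Scd2 (GENCODE M21, GRCm38), both on chromosome 19, 90.3% of aligned bases were identical. Their longest identical run was 147 bases, at coding positions 523 to 669 of Scd1 and 532 to 678 of Scd2. It is printed in capitals with 12 flanking bases in lower case on either side:
Scd1: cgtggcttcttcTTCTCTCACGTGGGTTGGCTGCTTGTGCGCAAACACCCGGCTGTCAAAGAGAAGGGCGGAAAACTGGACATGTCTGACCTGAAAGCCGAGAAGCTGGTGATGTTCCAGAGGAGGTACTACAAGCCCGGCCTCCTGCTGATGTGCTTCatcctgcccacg
Scd2: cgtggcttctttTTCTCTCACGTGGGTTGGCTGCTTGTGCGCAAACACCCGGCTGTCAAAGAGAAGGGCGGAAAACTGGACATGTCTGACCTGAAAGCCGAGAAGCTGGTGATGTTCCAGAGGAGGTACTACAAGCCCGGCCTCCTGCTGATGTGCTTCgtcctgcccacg
The flanks differ between the paralogs while the capitals are the same letter for letter. Fads1 and Fads2, also on chromosome 19, had 66.9% of aligned coding bases identical and a longest run of 17 bases:
Fads1: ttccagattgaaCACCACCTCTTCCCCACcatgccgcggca
Fads2: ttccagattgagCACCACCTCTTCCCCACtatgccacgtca
Acaca on chromosome 11 and Acacb on chromosome 5 had 71.1% of aligned coding bases identical and a longest run of 29 bases:
Acaca: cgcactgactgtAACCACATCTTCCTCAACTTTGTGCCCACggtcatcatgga
Acacb: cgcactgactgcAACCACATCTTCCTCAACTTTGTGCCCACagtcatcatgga
A read of 50 bases can thus lie wholly in sequence common to Scd1 and Scd2, but in the coding sequence not in any common to the other pairs.

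Over whole transcripts, 5 members shared no sequence of this length. Of the stretches of 50 bases in the annotated transcripts of Acly, Acacb, Fasn, Mcat and Fads1, 0 also occurred on the same strand in a transcript of another gene. Fads2 shared 5 of 3291 such stretches, all with its neighbour Fads3. Scd1 shared 4.56% and Scd2 3.97%, mostly with Scd3, Scd4 and each other. Elovl6 shared 3.98%, most of it with Gm11295, a processed pseudogene on chromosome 13. Acaca stood apart, with 30.4% of its stretches shared, most of them with Gm5182, a processed pseudogene on chromosome 12 that has no row among the genes of the table. With stretches of 36 or 75 bases, the share for Acaca was 32.5% and 26.8%. The authors' alignment allowed up to 100 places per read, and how such reads were counted is not given, and the part of such reads in the level of Acaca was not tested.

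**Figure D1:**
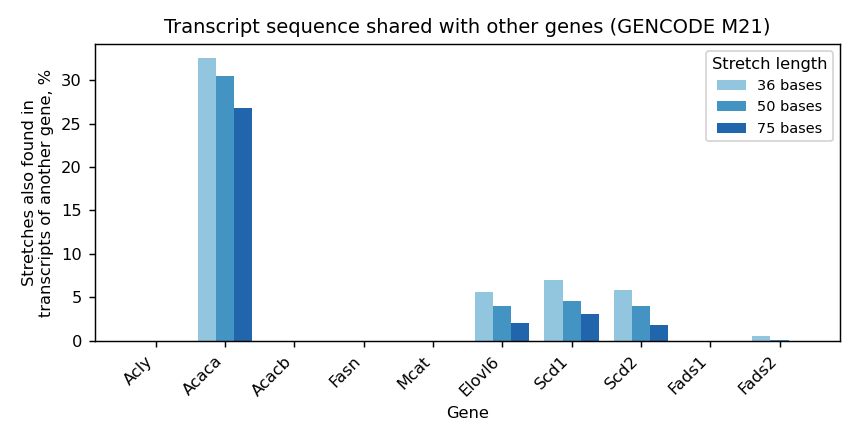
Share of the stretches of 36, 50 or 75 bases in each member's annotated transcripts that also occur in a transcript of another gene, in percent. Acaca reaches 30.4% at 50 bases, Scd1, Scd2 and Elovl6 lie near 4%, and the other members are at or near 0.

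The promoters of Fasn and Acly are shown because both enzymes belong to the cytosolic route to palmitate and their windows held the most motif matches. RefSeq gives a promoter window, from 250 bases before to 50 after a start site (GRCm38.p6), for 6 members: Acly, Acaca, Acacb, Fasn, Elovl6 and Fads2. Capitals mark matches on either strand to the CCAAT box (CCAAT, or ATTGG on the other strand) and the GC box (GGGCGG, or CCGCCC).
Fasn, chr11:120824498-120824797, minus strand: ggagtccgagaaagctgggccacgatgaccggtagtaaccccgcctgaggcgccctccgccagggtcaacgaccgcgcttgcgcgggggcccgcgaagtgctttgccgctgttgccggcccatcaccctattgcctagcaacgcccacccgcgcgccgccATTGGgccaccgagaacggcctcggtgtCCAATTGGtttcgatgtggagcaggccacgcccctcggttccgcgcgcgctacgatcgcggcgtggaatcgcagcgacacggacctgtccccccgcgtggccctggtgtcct
Acly, chr11:100527951-100528250, minus strand: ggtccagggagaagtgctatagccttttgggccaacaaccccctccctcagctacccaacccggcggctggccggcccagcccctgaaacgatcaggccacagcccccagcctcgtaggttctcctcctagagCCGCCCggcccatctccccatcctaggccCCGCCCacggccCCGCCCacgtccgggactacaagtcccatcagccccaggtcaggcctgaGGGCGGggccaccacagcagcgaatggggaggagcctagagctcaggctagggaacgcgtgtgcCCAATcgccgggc
Fasn had 3 CCAAT matches, of which the last 2 overlap in one palindrome, and 0 GC boxes. Acly had 4 GC boxes and 1 CCAAT match, the latter 38 bases after the start site. Of all 32851 windows of this length, 37.4% held a CCAAT match and 35.7% a GC box. The SREBP motif TCACNCCAC, found in 1.24% of all windows, and the E-box CACGTG, found in 7.15%, had 0 matches in the 6 windows, which says only that these letters are not there. For Acaca and Acacb the RefSeq window lies 65766 and 18983 bases inside the gene as the table gives it, at an internal start site. For Fasn the RefSeq start site lies at -369 bases from the gene's start in the table, so the printed window ends before that start.

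All 10 members were expressed, if a mean of 1 CPM is taken as the minimum that 12214 genes of the table passed. Scd2 was by far the most abundant, at 969 CPM, and Acacb the least, at 9.70 CPM, a ratio of 99.9. Together the 10 genes held 1943 CPM, of which Scd2 alone made up 49.9% and the 4 desaturases 79.5%. The median gene at or above the minimum had 18.1 CPM, and 8 members lay over it. CPM counts more reads for a longer transcript, so levels were compared between genes as CPM per kilobase of exon, with lengths from GENCODE M21. On that scale 6 members lay over the median of 4.08 for protein-coding genes. All 4 desaturases and Acly lay over the 90th percentile of these genes. With the longest transcript as length Fads2 no longer did, and with the coding length neither Fads2 nor Acly did.

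**Figure D2:**
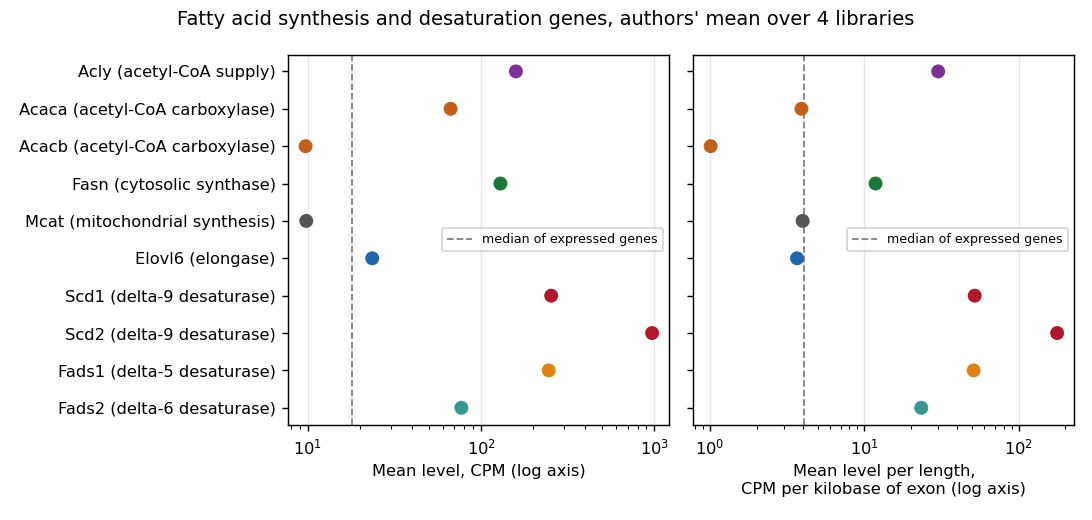
Mean level of each member over the 4 libraries, in CPM (left) and CPM per kilobase of exon (right), on log axes; points are the authors' means without an error bar, colors mark the enzyme's role and dashed lines the median of genes with at least 1 CPM (right, the protein-coding ones). Scd2 leads on both scales, followed by Scd1 and Fads1, while Fads2 lies below Acly on both.

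Per kilobase the order was Scd2, Scd1, Fads1, Acly, Fads2, Fasn, Mcat, Acaca, Elovl6 and Acacb. Scd1 and Fads1 differed by 1.57%, less than the 8.72% of their combined BCV. Mcat was 1.82% above Acaca and Acaca 6.76% above Elovl6, against a combined BCV of 14.2% and 11.2%. With the union of exons as length, these pairs of neighbours were not apart beyond their combined BCV. The other 6 pairs were, with this length, the closest being Acly and Fads2 at 28.8% against 9.89%. The order of Acly and Fads2 turned with the coding length in place of the exons, at 48.1 CPM per kilobase for Acly and 57.8 for Fads2, and the order of Scd1 and Fads1 turned with the longest transcript. The BCV holds neither counting noise nor an error of length, so this is a description and not a test. The BCV describes how replicates vary, not how far the averaged cell lines differ. An order in the mean thus need not hold in both lines.

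Acly, which supplies the cytosol with acetyl-CoA, lies on chromosome 11 from 100476353 to 100528000 (ENSMUSG00000020917, minus strand). Its mean level was 159 CPM with a BCV of 6.19%. This made 30.1 CPM per kilobase over 5279 exon bases, higher than 93.7% of protein-coding genes with at least 1 CPM. It was 7.70 times the level of Acaca on the same scale.

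The acetyl-CoA carboxylases catalyse the committed step, Acaca in the cytosol and Acacb at the outer mitochondrial membrane, where its malonyl-CoA restrains the uptake of fatty acids for oxidation. Acaca (ENSMUSG00000020532, chromosome 11, 84129672 to 84401651, plus strand) had 66.7 CPM with a BCV of 6.80%. Acacb (ENSMUSG00000042010, chromosome 5, 114146535 to 114250761, plus strand) had 9.70 CPM with a BCV of 12.1%. Per kilobase the levels were 3.91 and 1.01, so that Acaca held 79.5% of the pair and Acacb 20.5% in the mean of both cell lines, which may be the share in neither. With the coding length the share of Acaca was 87.8%. Acaca stood near the middle of protein-coding genes, above 48.7% of them, while Acacb was above 15.7%. The annotation gives Acaca 17074 exon bases, of which its longest transcript has 9513, and this length lowers its level per kilobase. The only row of the table that overlaps Acaca, apart from itself, is Gm11437, on the opposite strand and at 0.402 CPM.

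Fasn, the multifunctional synthase of palmitate, lies on chromosome 11 from 120805940 to 120824178 (ENSMUSG00000025153, minus strand). It had 129 CPM with a BCV of 6.34%, and 11.8 CPM per kilobase, above 80.4% of protein-coding genes. Its level per kilobase was 3.02 times that of Acaca. Mcat, which loads malonyl groups onto the acyl carrier protein of mitochondria, lies on chromosome 15 from 83546797 to 83555711 (ENSMUSG00000048755, minus strand). It had 9.79 CPM with a BCV of 12.5%, the widest of the 10, and 3.98 CPM per kilobase. In CPM, Fasn was 13.2 times Mcat, and per kilobase 2.97 times in the mean of both cell lines, since the exons of Fasn cover 10947 bases and those of Mcat 2462.

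Elovl6, the elongase of palmitate, lies on chromosome 3 from 129532386 to 129638495 (ENSMUSG00000041220, plus strand). Its mean was 23.5 CPM with a BCV of 8.88%, or 3.66 CPM per kilobase, above 46.7% of protein-coding genes. Elovl4 and Elovl5 were higher in CPM, at 56.7 and 53.5. Elovl4, known for fatty acids of very long chain in retina and skin, had 18.7 CPM per kilobase, and Elovl5, an elongase of polyunsaturated fatty acids, had 15.2. Elovl1, which acts on long saturated chains, had 8.14. Of the summed level per kilobase of the family, Elovl4 held 39.5%, Elovl5 32.0%, Elovl1 17.2% and Elovl6 7.72%. Only 801 of the 6431 exon bases of Elovl6 are coding, and with the coding length its share was 16.0%, above Elovl1 at 14.4% and below Elovl4 at 32.9% and Elovl5 at 32.4%. In CPM, Elovl6 at 23.5 and Elovl1 at 22.2 were close. Elovl7 had 6.27 CPM, or 1.56 CPM per kilobase, and Elovl2 and Elovl3 were at or near the table's lowest level of 0.163 CPM.

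The stearoyl-CoA desaturases had the highest levels of the set. Scd2 (ENSMUSG00000025203, chromosome 19, 44293676 to 44306864, plus strand) had 969 CPM with a BCV of 6.65% and ranked at 33 by CPM among 11681 protein-coding genes with at least 1 CPM. Scd1 (ENSMUSG00000037071, chromosome 19, 44394451 to 44407709, minus strand) had 254 CPM with a BCV of 6.10% and ranked at 282. Per kilobase they had 177 and 51.8, a ratio of 3.42 in favour of Scd2. The genes lie 87586 bases apart, in a cluster with Scd3 and Scd4, which are transcribed from the same strand as Scd2. Scd4, known from heart, had 1.27 CPM, and Scd3, known from skin and sebaceous gland, 0.285 CPM. Of the cluster's level per kilobase, Scd2 held 77.2% and Scd1 22.6%. The values of Scd3 and Scd4 are low enough that reads shared with Scd1 or Scd2 could make up a part of them, which was not tested. Mir5114 lies within Scd2 on the same strand and had 0.692 CPM.

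The front-end desaturases lie in a second cluster on chromosome 19. Fads1 (ENSMUSG00000010663, 10182888 to 10196870, plus strand) had 246 CPM with a BCV of 6.23%. Fads2 (ENSMUSG00000024665, 10064164 to 10101503, minus strand), which acts before Fads1 in the same pathway, had 76.9 CPM with a BCV of 7.71%. Per kilobase they had 51.0 and 23.3, so Fads1 was 2.19 times Fads2. Fads3, which starts the cluster 4492 bases from Fads2, had 22.5 CPM per kilobase, close to Fads2. Fads6, on chromosome 11, had 6.69.

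**Figure D3:**
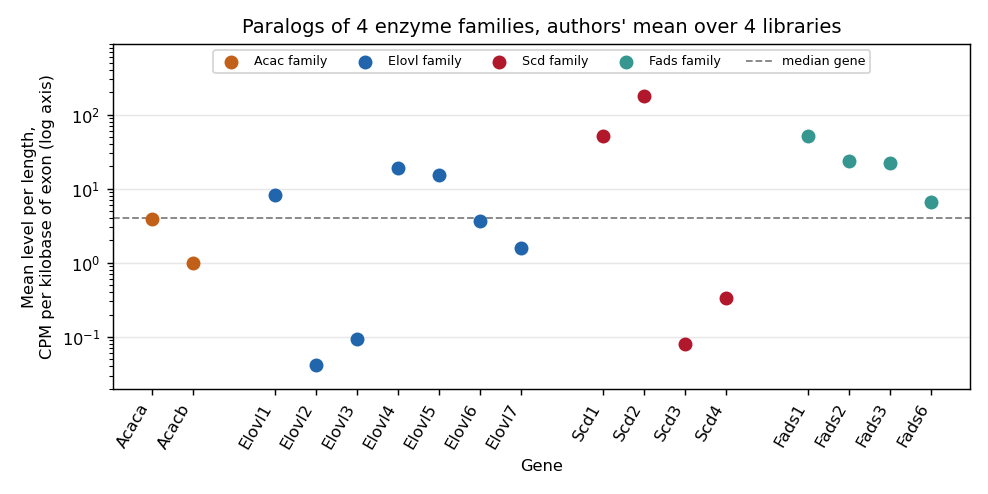
Mean level in CPM per kilobase of exon (log axis) of the paralogs of 4 enzyme families; points are the authors' means over 4 libraries and the dashed line is the median protein-coding gene with at least 1 CPM. Scd2 and Scd1 lie at 177 and 51.8 while Scd3 and Scd4 lie under 1, and Elovl6 lies below Elovl4 and Elovl5.

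The BCV of the members ran from 6.10% for Scd1 to 12.5% for Mcat, and was widest for Mcat, Acacb and Elovl6, the members lowest in CPM. The median over genes with at least 1 CPM was 9.77%. Set beside genes within 0.5 of the same log2 CPM, 4 members were under and 6 over the median of those genes. Fads2 was the farthest from it, at 7.71% against 6.62%, above 90.3% of 1492 genes of like level. For the other 9 members, between 39.2% and 60.8% of the genes of like level had a lower BCV.

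**Figure D4:**
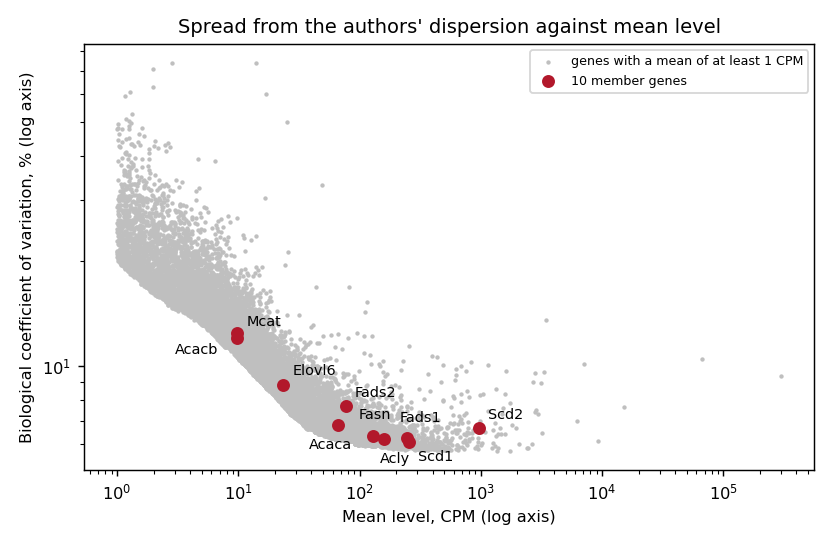
BCV in percent against mean CPM, both on log axes, for genes with at least 1 CPM (grey) and the 10 members (red), from the authors' dispersion and mean. The members run from Mcat and Acacb above 12% to Scd1 at 6.10%, and Fads2 lies above genes of like level.

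Genes around the pathway were examined from 8 lists. Their levels per kilobase rest on the union of exons, and outside the Scd, Fads and Elovl families no other length was tried. Among 10 genes of acetyl-CoA, NADPH and malonyl-CoA supply, 9 reached 1 CPM, and their median was 13.4 CPM per kilobase. Me1, the cytosolic malic enzyme that yields NADPH, led with 103 CPM per kilobase, followed by Idh1 with 39.0, Pgd with 28.2 and G6pdx with 26.1. Slc25a1, the citrate carrier of mitochondria, had 18.9. Acss2, which makes acetyl-CoA from acetate, had 1.54 over 10163 exon bases, at 15.6 CPM. Thrsp, a lipogenic factor of liver and fat, was near the lowest level at 0.341 CPM. Mlycd, which breaks malonyl-CoA down, had 3.17 CPM per kilobase.

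The mitochondrial pathway was of lower level. All 8 genes found for it and for lipoate synthesis reached 1 CPM, but their median was 2.56 CPM per kilobase and 0 passed the 90th percentile of protein-coding genes. Lias, the lipoic acid synthase, had 3.11 CPM per kilobase, Ndufab1, the acyl carrier protein, 3.09, Oxsm, the condensing enzyme, 2.72 and Mecr, the last reductase, 2.39. Mcat had 3.98. In CPM, Ndufab1 at 21.3, Lias at 14.2 and Oxsm at 11.2 lay above Mcat at 9.79. Of the 8 genes, 1 lay over the median of 18.1 CPM, namely Ndufab1, whose annotated exons cover 6883 bases.

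The partners of the elongases and desaturases spread widely. Of 11 other elongation enzymes, 9 reached 1 CPM and 2 lay over the 90th percentile per kilobase, and of 9 other desaturases and electron donors, 7 and 5. Ptplad1 (Hacd3 in current naming), a dehydratase of the elongation cycle, had 56.4 CPM per kilobase, Hsd17b12, a reductase of that cycle, 26.3, and Tecr, the final reductase, 17.7. Ptpla and Ptplb (Hacd1 and Hacd2), paralogs of Ptplad1, had 2.32 and 2.94, under the median. Desaturases take electrons from cytochrome b5 and its reductase. Cyb5 had 73.5 CPM per kilobase, Cyb5r3 66.9 and Cyb5b 30.7, all over the 90th percentile. Degs1, the desaturase of ceramide synthesis, had 23.6, whereas Degs2 was at 0.409 CPM.

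Of the regulators, Srebf2 had 19.6 CPM per kilobase and Srebf1, the factor more closely tied to fatty acid genes, 11.6. Insig2 and Insig1, which hold SREBPs in the endoplasmic reticulum, had 41.8 and 16.2, and Scap, their escort, 6.30. Mlxipl, the carbohydrate-responsive factor, had 2.08, and the liver X receptors Nr1h2 and Nr1h3 had 8.15 and 0.836. AMPK phosphorylates and restrains both carboxylases. Its catalytic subunit Prkaa1 had 20.2 CPM per kilobase while Prkaa2 was near the lowest level at 0.203 CPM.

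Genes that take fatty acids onward were uneven. Acsl4, the acyl-CoA synthetase with a preference for arachidonate, had 137 CPM per kilobase, and Acsl5 69.9, but Acsl6 was at 0.385 CPM. Lpl, a secreted lipase, had 17.2 CPM per kilobase. Cd36 and Fabp4, a transporter and a binding protein of fatty acids, were near the lowest level at 0.224 and 0.225 CPM. Other genes listed for uptake and binding were higher, with Fabp5 at 9.18 CPM per kilobase, Slc27a4 at 7.13 and Slc27a1 at 2.16. Slc27a3 had 0.912 CPM per kilobase, and Fabp3 was at 0.420 CPM. In glycerolipid assembly and storage, Plin2 and Plin3, coat proteins of lipid droplets, had 41.5 and 30.1 CPM per kilobase, and Gpam, the first acyltransferase, 9.58. Dgat1 had 5.27 CPM per kilobase and Dgat2 was at 0.446 CPM.

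The labelled cell type was checked against its markers, since fat cells are also rich in these enzymes. Of 8 markers of ovarian surface epithelium and mesothelium, 8 reached 1 CPM, with Krt19 at 938 CPM, Krt18 at 501, Krt8 at 435, Upk3b at 157 and Wt1 at 153, but Krt7 at 1.91. Of 6 adipocyte markers, 0 reached it, and their summed level was 1.24 CPM, with Plin1, Lep and Cfd at the table's lowest value. Of 8 leukocyte markers, Cd68 at 13.0 CPM and Csf1r at 1.88 CPM reached it, and Ptprc was at 0.224 CPM. Of 4 endothelial markers, Pecam1 reached it at 4.62 CPM, and Cdh5 was at 0.183 CPM. Of 5 fibroblast markers, 4 reached it, Dcn at 320 CPM, Pdgfra at 8.39, Col1a1 at 1.57 and Pdgfrb at 1.13. These are means over both cell lines, so a share of other cells in one of them cannot be read from them.

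One non-coding gene, Gm26924, held 29.7% of all CPM in the table, and Lars2 6.57%. All levels in CPM are lowered in common by such genes, whose share in each library was not examined here.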

How the data were processed

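RNA from 2 libraries of ID8-P0 and 2 of ID8-PW2 cells was sequenced. By the submitters' processing notes and the study's methods, reads were demultiplexed with CASAVA 1.8.2, trimmed with Trimmomatic 0.22, aligned to the mouse genome with TopHat2 2.0.6 and Bowtie2 2.0.2 as stranded reads with up to 100 places each, summed per gene with at most 2 mismatches, and compared by the authors with edgeR 3.20.8. The notes name a human build, while identifiers and chromosomes are mouse. The log2 CPM, as deposited by the authors, is a mean over all libraries. The dispersion, as deposited by the authors, is a score per gene from edgeR.

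The table also holds 4 columns of counts under names that match no label, and the authors' fold changes, p-values, adjusted p-values and calls. None of these was used. The planned tests between groups therefore could not be run, and depth per library, its precision and values per library are not given.

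Positions are those of the table. Of its 23875 genes, 23382 have their identifier in GENCODE M21 (GRCm38), of which 23381 lie on the same chromosome but 18929 share a start or an end. Of the 10 members, 3 share both, so the M21 exon lengths can belong to another gene model than the one the authors counted. Exon length is the union of a gene's exons in M21, available for 11590 of the 11681 protein-coding genes with at least 1 CPM. Promoters are from RefSeq (GRCm38.p6). Shared stretches were counted on the transcripts' own strand. Scans for motifs and shared sequence were tested on simulated data. Older symbols were matched by identifier, and 1 listed gene, Hsd17b8, was not matched. Python 3.11.15, numpy 2.4.6, pandas 2.3.3 and matplotlib 3.10.9 were used.

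The 10 members and the lists were chosen with earlier results of these data known. All members are named. The rule for other genes rested on fold changes and could not be applied, so the genes named from the lists were chosen after their levels were seen.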

Additional observations from a re-analysis of the deposited data

How the results depend on the processing

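The alternatives planned for the comparison of ID8-PW2 with ID8-P0 (other size factors, DESeq2, filters, call rules and leaving out each library) need counts per library and were not run. No paired analysis was possible because the columns of counts carry no replicate number or group. The alternatives below were chosen after seeing the data. Leaving out Gm26924 raised all CPM values 1.42 times, and leaving out Lars2 as well 1.57 times. This moves members and median alike and is no check of their order. With a minimum of 10 CPM 7 members lay over the median CPM, and with no minimum 10 did.

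The levels per kilobase depended on the length used. With the longest transcript as length, the ratio of Acaca to Acacb per kilobase was 6.35, of Fads1 to Fads2 2.91 and of Fasn to Mcat 2.52, and 4 members lay over the 90th percentile. With the coding length these ratios were 7.18, 3.17 and 2.01, that of Scd2 to Scd1 was 3.79, and 3 members lay over the 90th percentile. By coding length Elovl6, with a long untranslated part, rose from 3.66 to 29.4 per kilobase, above Fasn at 17.2. The longest transcript put Fads1 above Scd1 and Acaca above Mcat, and the coding length put Fads2 above Acly and Acaca above Mcat. Scd2 was highest and Acacb lowest of the 10 with all 3 lengths.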
